A study of Rattus norvegicus with 8 samples.

Results

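Collagen chains and proteins secreted into the extracellular matrix were examined through 9 genes: Col1a1, Col3a1, Lox, Bgn, Dcn, Lum, Mgp, Spp1 and Sparc. They were chosen by name, with earlier results of these data known. Every probe set annotated to one of these symbols was used, whatever its signal. The 9 genes are among 4737 genes named by a probe set of the array, and none of the 9 lacked a probe set. They had 23 probe sets in all: 4 each for Col1a1, Sparc, Dcn and Lox, 2 each for Col3a1 and Bgn, and 1 each for Mgp, Spp1 and Lum. A mean signal of at least 8 over the 8 arrays was required for testing, which 19 of the 23 probe sets reached. The other 4 were a pair for Dcn and a pair for Lox.

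Total RNA of C6, a glioma line derived from a chemically induced rat brain tumour, was measured on 8 Affymetrix rat arrays, under a study title on fast glial cells and with migration as the description. The titles give 4 groups of 2 arrays: C6slow, C6fast, C6SPGFPslow and C6SPGFPfast, written with a space from here on. All 8 arrays carry the C6 line as their source, and no treatment, clone, passage or allele is given. What C6SPGFP denotes and how the slow and the fast cells were obtained is not stated in the sources used here.

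The extracellular matrix is built on fibrillar collagens, triple helices that assemble into fibrils outside the cell and are cross-linked there by lysyl oxidase. Small leucine-rich proteoglycans bind these fibrils and set their spacing, and matricellular and mineral-binding proteins act on how cells attach to the matrix and on whether it calcifies. Normal brain parenchyma holds little fibrillar collagen, which lies mainly around its vessels and in the meninges, whereas osteopontin and SPARC are known from astrocytic tumours.

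Values are normalised probe set signals, an arbitrary linear brightness that is comparable between arrays for one probe set but not between probe sets. Changes are differences of mean log2(signal + 8), so folds are folds of signal plus 8 and understate the change where signals are low. A change is called where the adjusted p of limma was under 0.05 over all 6684 probe sets tested. The labels do not say that the arrays of a group came from separate cultures, so a p-value reflects the spread among these arrays alone, which may be technical, and 2 arrays per group limit the precision. For one gene alone, an exact permutation test of 2 against 2 arrays cannot go below p = 0.333. In RNA of whole cell populations, fewer cells expressing a gene and less RNA per cell cannot be told apart.

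One array stood apart in its scale as deposited, C6SPGFP fast replicate 1, with a 2% trimmed mean of 499.9 where the other 7 arrays had 99.4 to 104.8, and for this reason the arrays were quantile normalised. After that the log2 values correlated at 0.969 to 0.978 between replicates of a group and at 0.899 to 0.971 between arrays of different groups. On normalised signals, the ratio of the control probe sets for the 3′ and 5′ ends of actin mRNA was 1.14 and 1.13 in C6SPGFP slow. It was 1.01 to 1.05 on the other 6 arrays. The same ratio for Gapdh was 0.988 and 0.971 in C6SPGFP slow, within the 0.954 to 1.05 of the other 6 arrays. Detection calls were not used, so the lowest signals may lie at background.

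The 9 genes did not move as one group. Bgn and one Col1a1 probe set were lower in fast than in slow C6 cells, and Mgp was lower and one of the Col3a1 probe sets higher in fast than in slow C6SPGFP cells. This Col1a1 call was kept under 5 of 17 alternative settings. The Col3a1 probe set could be tested only through its signal in C6SPGFP fast, and its call was kept under 11 of 16. Between the sets, Mgp was far higher in C6SPGFP among slow cells. Among fast cells Mgp, Bgn, Col3a1, Spp1 and the Col1a1 probe sets M27207mRNA_s_at and Z78279_g_at were higher in C6SPGFP. The other Col1a1 probe sets were not called there, and the Spp1 call was kept under 7 of 17 alternative settings. Dcn, Lum, Lox and Sparc passed the test in no comparison.

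In counts, 3 of the 19 probe sets were called in fast against slow C6 cells, all lower, where 6.66% of all probe sets tested were called. In fast against slow C6SPGFP cells 2 of the 19 were called, 1 higher and 1 lower, against 1.39% of all probe sets. C6SPGFP against C6 gave 1 call of 19 among slow cells, where 6.34% of all probe sets were called, and 8 of 19 among fast cells, all higher, where 15.6% were called. The difference between the sets in the change from slow to fast, the interaction, was called for 3 of 19, all with the more positive change in C6SPGFP, against 3.82% of all probe sets. Over all probe sets, 265 of 445 calls were lower in fast C6 cells, and 554 of 1042 were higher in C6SPGFP among fast cells. Of the 255 interaction calls, 181 were positive. The median log2 change of the 19 was -0.26, -0.04, -0.07, 0.35 and 0.39 in these 5 comparisons, and over all probe sets tested it lay between -0.04 and 0.01. Without Col3a1 X70369_s_at, which reached the mean signal of 8 only through C6SPGFP fast, the counts were 1, 7 and 2 of 18 in fast against slow C6SPGFP cells, between the sets among fast cells and for the interaction. Several of the 19 measure the same gene and are not independent, and the comparisons share arrays: the C6 fast arrays enter both the change within C6 and the comparison of the sets among fast cells. As the genes were chosen with earlier results of these data known, the counts beside the shares over all probe sets are a description, not a test.

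**Figure D1:**
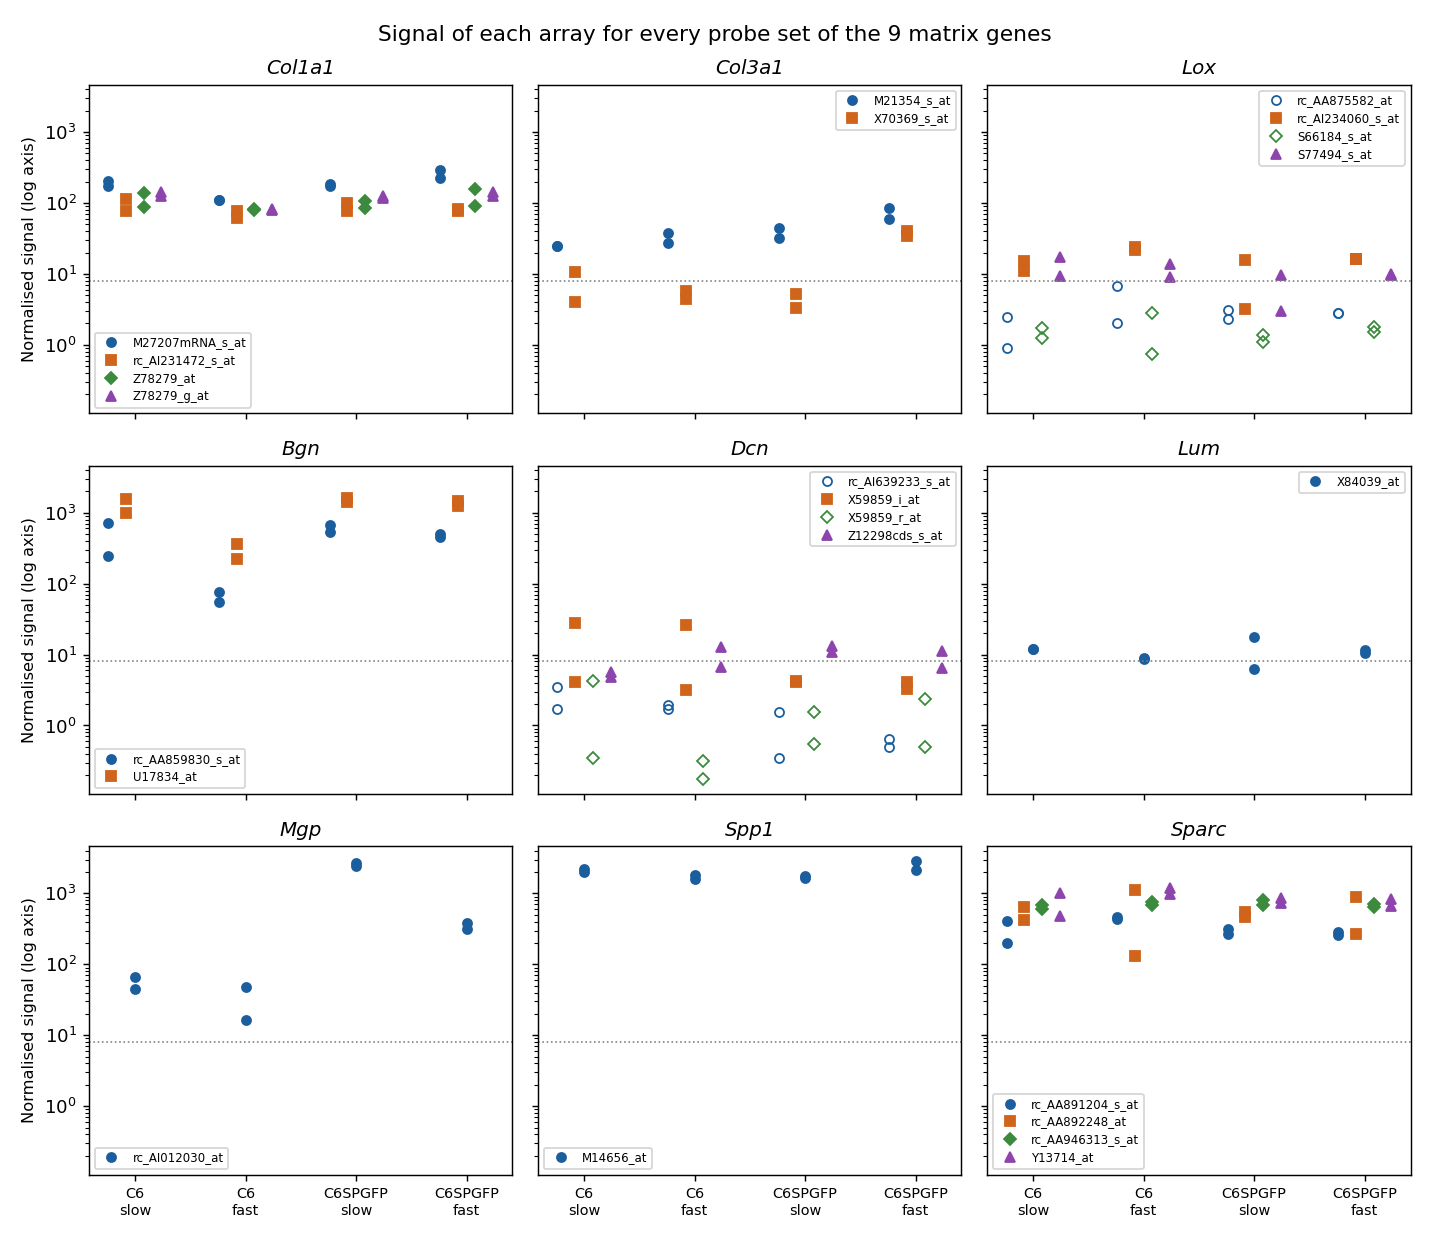
Normalised signal (log axis) of each of the 8 arrays, by group, for every probe set of the 9 genes; 1 panel per gene, 1 symbol per probe set, open symbols for the 4 probe sets not tested, and a dotted line at a signal of 8. Mgp stands at 2475 and 2681 in C6SPGFP slow against 16.2 to 66.1 on the C6 arrays, Bgn is lowest in C6 fast for both probe sets, and Dcn, Lum and Lox stay at or below 28.0.

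Col1a1 encodes the main chain of type I collagen, the most abundant fibrillar collagen of the body. Its probe set M27207mRNA_s_at read 176 and 205 in C6 slow, 109 and 110 in C6 fast, 174 and 185 in C6SPGFP slow, and 228 and 288 in C6SPGFP fast. The fast arrays thus lay below the slow ones in C6 and above them in C6SPGFP, with no overlap in either set. In C6 the change was -0.75 ± 0.18 (log2, SE; adjusted p = 0.0462), and in C6SPGFP it was 0.49 ± 0.18 (adjusted p = 0.387). The interaction was 1.24 ± 0.26 (adjusted p = 0.0355). Among fast cells the signal was 2.24-fold higher in C6SPGFP (log2 1.17 ± 0.18, adjusted p = 0.00328), and among slow cells the difference was -0.08, with a 95% interval from -0.49 to 0.34.

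The other 3 Col1a1 probe sets did not all follow. Z78279_g_at read 127 and 143 in C6 slow, 79.5 and 81.0 in C6 fast, 125 and 119 in C6SPGFP slow, and 124 and 143 in C6SPGFP fast. It had the same low pair in C6 fast, with a change of -0.69 in C6 (adjusted p = 0.0541) and a call of 0.68 between the sets among fast cells (adjusted p = 0.0340). Z78279_at spanned 80.0 to 156 and rc_AI231472_s_at 62.2 to 114 over the 8 arrays, and neither was called in any of the 5 comparisons. All 4 had a negative change in C6, of -0.75 to -0.39, but only M27207mRNA_s_at passed the test. Over the 8 arrays M27207mRNA_s_at and Z78279_g_at correlated at 0.920, and the other pairs at 0.394 to 0.614, as a description over arrays that share their groups. The call in C6 was kept under 5 of 17 alternative settings and was lost when any 1 of the 8 arrays was left out, and the interaction was likewise lost without any 1 of them. The Z78279_g_at call among fast cells was kept under 9 of 17.

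Col3a1 encodes the chain of type III collagen, which forms fibrils together with type I collagen in soft tissues and vessel walls. X70369_s_at read 10.5 and 4.05 in C6 slow, 5.64 and 4.48 in C6 fast, 3.35 and 5.26 in C6SPGFP slow, and 40.0 and 34.0 in C6SPGFP fast. Both C6SPGFP fast arrays lay above all 6 others, none of which exceeded 10.5. This probe set reached the mean of 8 needed for testing, at 13.4, only through C6SPGFP fast, the other 3 group means being 4.30 to 7.28, so it could be tested only because it differed there. With no filter on signal its 3 calls were made as well. The change from slow to fast in C6SPGFP was 1.87 ± 0.28 (adjusted p = 0.0168), a 3.66-fold rise of signal plus 8, and in C6 it was -0.19 (adjusted p = 0.796). The interaction was 2.07 ± 0.40 (adjusted p = 0.0266), and among fast cells C6SPGFP exceeded C6 by 1.78 ± 0.28 (adjusted p = 0.00361).

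The second Col3a1 probe set, M21354_s_at, had the same pair on top. It read 24.6 on both C6 slow arrays, 26.8 and 37.9 in C6 fast, 43.6 and 32.1 in C6SPGFP slow, and 85.3 and 59.6 in C6SPGFP fast. The C6SPGFP fast arrays did not overlap with any other array. Among fast cells the set difference was 0.99 ± 0.26 (adjusted p = 0.0330), while the change in C6SPGFP, 0.80 ± 0.26, did not pass (adjusted p = 0.285), nor did the interaction of 0.51 (adjusted p = 0.581). The rise of X70369_s_at within C6SPGFP was not called when any 1 of the 4 C6SPGFP arrays was left out, and its interaction was lost without any 1 array except C6 slow replicate 2. Its difference among fast cells was called under all 16 alternatives that gave a value, and that of M21354_s_at under 10 of 16.

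Lox, lysyl oxidase, oxidises lysines of collagen and elastin so that the fibres cross-link. Its 4 probe sets read between 0.75 and 23.7 on all arrays, and 2 of them, S66184_s_at and rc_AA875582_at, read at most 6.74 and were not tested. The brightest, rc_AI234060_s_at, read 10.9 and 15.2 in C6 slow, 21.8 and 23.7 in C6 fast, 15.5 and 3.20 in C6SPGFP slow, and 16.3 and 16.1 in C6SPGFP fast. The fast arrays lay above the slow ones in both sets, by 0.55 ± 0.35 in C6 and 0.58 ± 0.35 in C6SPGFP, and neither change passed the test (adjusted p = 0.456 and 0.638). S77494_s_at read 2.96 to 17.2, and its largest difference, -0.59 between the sets among slow cells, did not pass either (adjusted p = 0.351).

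Bgn encodes biglycan, a small leucine-rich proteoglycan that binds collagen and, when free, is known to signal through Toll-like receptors. U17834_at read 981 and 1585 in C6 slow, 223 and 364 in C6 fast, 1627 and 1426 in C6SPGFP slow, and 1478 and 1238 in C6SPGFP fast. The C6 fast arrays were the lowest of the 8, without overlap, and the other 6 arrays lay between 981 and 1627. In C6 the fast cells were 4.28-fold lower (-2.10 ± 0.27, adjusted p = 0.00205). In C6SPGFP the change was -0.17, with a 95% interval from -0.79 to 0.45 (adjusted p = 0.897), and the interaction was 1.93 ± 0.38 (adjusted p = 0.0301). The set difference was 2.22 ± 0.27 among fast cells (adjusted p = 0.00102) and 0.29 ± 0.27 among slow cells (adjusted p = 0.610).

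The second Bgn probe set gave the same order of groups. rc_AA859830_s_at read 247 and 705 in C6 slow, 55.2 and 76.5 in C6 fast, 682 and 534 in C6SPGFP slow, and 505 and 450.1 in C6SPGFP fast. Its change was -2.54 ± 0.41 in C6 (adjusted p = 0.00708) and -0.33 ± 0.41 in C6SPGFP (adjusted p = 0.862). Among fast cells C6SPGFP was higher by 2.73 ± 0.41 (adjusted p = 0.00266). The interaction of 2.21 ± 0.58 had an adjusted p of 0.0900 and was not called. Leaving out 1 array moved the C6 change of this probe set between -3.29 and -1.80, and the call was lost without C6 fast replicate 1 (adjusted p = 0.0530). Its interaction was called without C6 slow replicate 1 (2.95, adjusted p = 0.00355), and its difference among slow cells without C6 slow replicate 2 (1.26, adjusted p = 0.0337). The log2 values of both probe sets correlated at 0.987 over the 8 arrays. Of 8 glial markers tested, Sox10, S100b, Nes, Cnp and Ptprz1 were called lower in fast C6 cells, beside 6.66% of all probe sets. Vim, Aldoc and Slc1a3 were not called there. S100b, Cnp and Ptprz1 were also called higher in C6SPGFP among slow cells, where with all 8 arrays neither Bgn probe set was. The part of these markers in the Bgn result was not tested. The difference among fast cells was called for both Bgn probe sets under all 17 alternatives. The interaction of U17834_at was called under 7 of 16 and was lost without any 1 of the C6SPGFP arrays, C6 slow replicate 2 or C6 fast replicate 1.

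Dcn and Lum encode decorin and lumican, 2 further small leucine-rich proteoglycans that bind collagen fibrils. Their genes are next to each other in the rat annotation, with 0 protein-coding genes between them. Lum read 12.2 and 12.1 in C6 slow, 8.87 and 8.76 in C6 fast, 17.9 and 6.24 in C6SPGFP slow, and 11.8 and 10.4 in C6SPGFP fast, and its changes lay between -0.26 and 0.25. Of the 4 Dcn probe sets, rc_AI639233_s_at and X59859_r_at stayed at or below 4.20 and were not tested. Z12298cds_s_at read 4.81 to 13.2, and its values in the 5 comparisons lay between -0.64, for the interaction, and 0.60, between the sets among slow cells (adjusted p = 0.529 and 0.278). X59859_i_at read 28.0 and 4.05 in C6 slow and 26.3 and 3.20 in C6 fast, and 3.31 to 4.18 on the C6SPGFP arrays. Its signal thus passed the 8 required for testing on 1 replicate of each C6 group and on no other array.

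Mgp encodes matrix Gla protein, a vitamin K-dependent protein of cartilage and vessel walls that holds back calcification. Its probe set rc_AI012030_at read 45.6 and 66.1 in C6 slow, 16.2 and 48.1 in C6 fast, 2681 and 2475 in C6SPGFP slow, and 318 and 382 in C6SPGFP fast. From the top, the order of the groups was C6SPGFP slow, C6SPGFP fast, C6 slow and C6 fast; the first 3 did not overlap, and the C6 groups did. Among slow cells the signal was 41.0-fold higher in C6SPGFP (5.36 ± 0.36, adjusted p = 0.000151), and this was rank 1 of all 6684 probe sets tested by size of change. Among fast cells it was 9.67-fold higher (3.27 ± 0.36, adjusted p = 0.000559).

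Within the sets, Mgp fell by 2.86 ± 0.36 on the log2 scale from slow to fast C6SPGFP cells (adjusted p = 0.00721), a change of rank 11 by size. In C6 the change was -0.77 ± 0.36 (adjusted p = 0.285), and it was -0.17 without C6 fast replicate 1 and -1.38 without C6 fast replicate 2, where it was called (adjusted p = 0.0255). The interaction of -2.08 ± 0.50 did not pass (adjusted p = 0.0655). It was called under 4 of 16 alternatives: a pseudocount of 32 (adjusted p = 0.00838), a required mean of 50 (0.0497), the replicate number as a block (0.0363), and without C6 fast replicate 1 (-2.69, adjusted p = 0.00599). Both set differences were called under all 17 alternatives. The call of the fall within C6SPGFP was lost without C6SPGFP fast replicate 1, fast replicate 2 or slow replicate 2, where the change was -2.73, -2.99 and -2.92. It was also lost at the deposited scaling, where the change was -1.59 (adjusted p = 0.454). There the median log2 change of all probe sets in this comparison was 1.04.

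**Figure D2:**
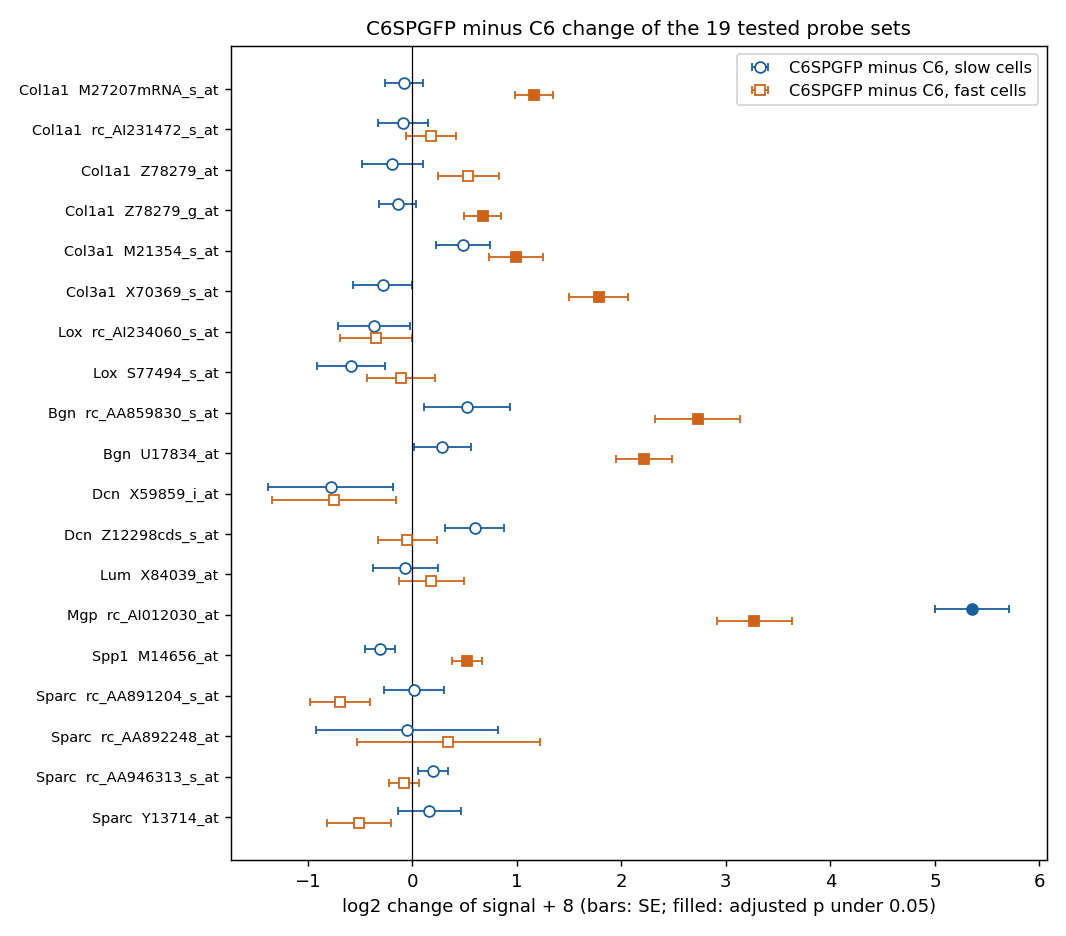
Log2 difference between C6SPGFP and C6 in mean log2(signal + 8) for the 19 tested probe sets, among slow cells and among fast cells, with bars of 1 standard error from limma; filled symbols have an adjusted p under 0.05. Of the 19, Mgp alone is called among slow cells, at 5.36, while 8 probe sets of 5 genes are called among fast cells, from 0.53 for Spp1 to 3.27 for Mgp. Over all probe sets tested, 6.34% are called among slow cells and 15.6% among fast cells.

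Spp1 encodes osteopontin, a secreted phosphoprotein that binds integrins and CD44. M14656_at read 2245 and 2018 in C6 slow, 1607 and 1841 in C6 fast, 1774 and 1661 in C6SPGFP slow, and 2841 and 2169 in C6SPGFP fast. The signal was high on every array, and the fast arrays lay below the slow ones in C6 and above them in C6SPGFP. Neither change passed the test (-0.31 ± 0.14 in C6, adjusted p = 0.297; 0.53 ± 0.14 in C6SPGFP, adjusted p = 0.194), nor did the interaction of 0.84 ± 0.20 (adjusted p = 0.0675). Among fast cells C6SPGFP was higher by 0.53 ± 0.14 (adjusted p = 0.0408). This last call was kept under 7 of 17 alternatives, and with the arrays scaled to a common trimmed mean the Spp1 value was 0.18 (adjusted p = 0.472).

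Sparc encodes SPARC or osteonectin, a matricellular protein that binds collagen and calcium. Its 4 probe sets read 129 to 1177, and none was called in any comparison. The one with the closest replicates, rc_AA946313_s_at, read 690 and 611 in C6 slow, 761 and 677 in C6 fast, 806 and 688 in C6SPGFP slow, and 654 and 703 in C6SPGFP fast. Its change was 0.14 in C6, with a 95% interval from -0.18 to 0.47, and -0.13 in C6SPGFP, with one from -0.46 to 0.19. Y13714_at read 479.9 and 1018 in C6 slow, 972 and 1177 in C6 fast, 849 and 725 in C6SPGFP slow, and 834 and 671 in C6SPGFP fast. Here C6 slow replicate 1 stood below the other 7 arrays, as it did at 200.1 for rc_AA891204_s_at, which otherwise read 259 to 459.7.

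The change in C6 was 0.61 ± 0.31 for Y13714_at and 0.64 ± 0.29 for rc_AA891204_s_at (adjusted p = 0.335 and 0.273). Without C6 slow replicate 2, which leaves the low array as the only C6 slow array, both were called, at 1.14 and 1.13 (adjusted p = 0.0169 and 0.0152), with the spread taken from the other groups and assumed to hold for that lone array. The fourth, rc_AA892248_at, differed widely between replicates, at 129 and 1127 in C6 fast and 269 and 902 in C6SPGFP fast. Its standard error was 0.87, where that of rc_AA946313_s_at was 0.14. Among fast cells the set difference of rc_AA891204_s_at was -0.69 ± 0.29, which did not pass (adjusted p = 0.151). Without either of the C6 slow arrays, or with the 4 fast arrays alone, that difference was called.

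**Figure D3:**
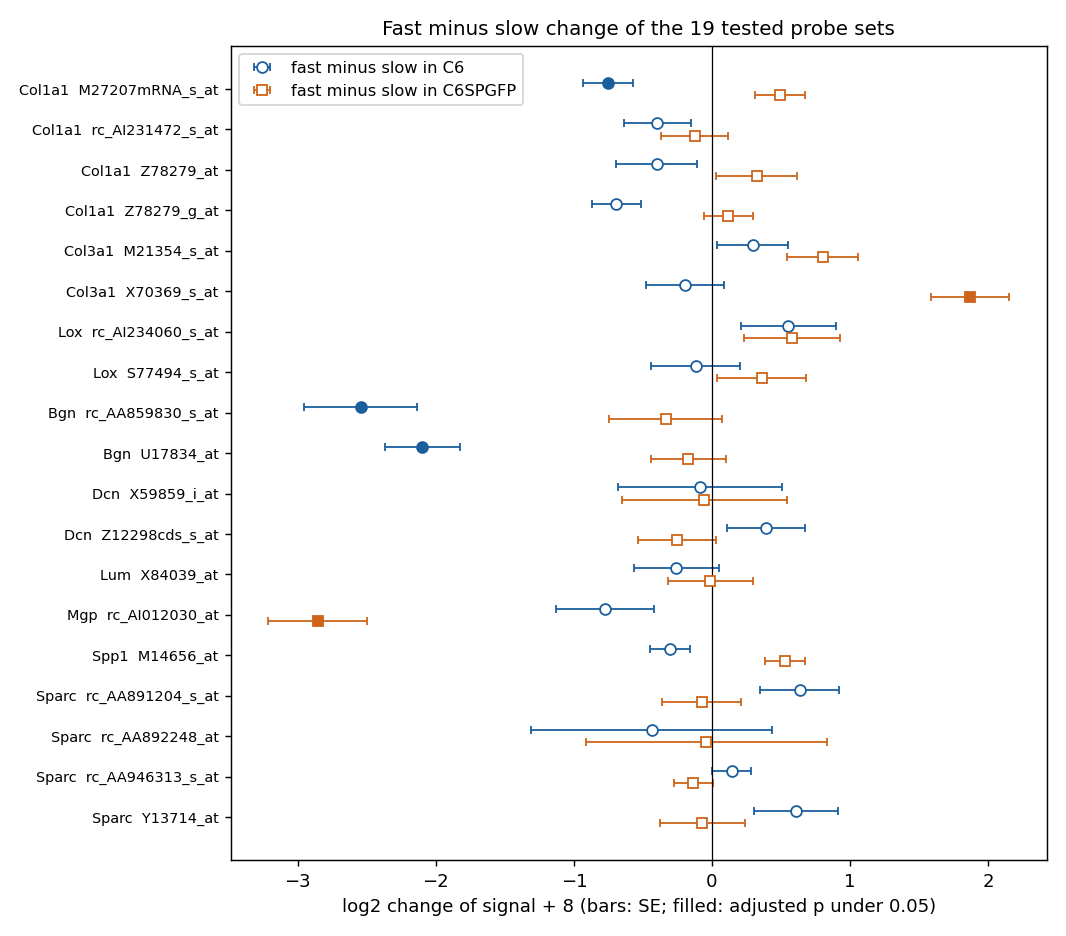
Log2 change of mean log2(signal + 8) from slow to fast cells for the 19 tested probe sets, within C6 and within C6SPGFP, with bars of 1 standard error from limma; filled symbols have an adjusted p under 0.05. The Bgn probe sets lie at -2.10 and -2.54 in C6 and at -0.17 and -0.33 in C6SPGFP, Mgp lies at -2.86 in C6SPGFP, and Col3a1 X70369_s_at lies at 1.87 there.

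Across the 4 groups the members varied by very different amounts. The span of the group means, the highest minus the lowest on the log2 scale, was 6.13 for Mgp, larger than in 99.96% of the probe sets tested. It was 2.39 and 3.06 for the Bgn probe sets, 1.87 for Col3a1 X70369_s_at and 1.17 for Col1a1 M27207mRNA_s_at. Spp1 spanned 0.53 and Sparc rc_AA946313_s_at 0.20, larger than in 46.8% and 7.21% of the probe sets tested.

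The genes whose pattern over the 8 arrays was most like that of Mgp were Gpc1, which encodes the heparan sulfate proteoglycan glypican-1 (Pearson r = 0.983), Ncam1 (0.973) and Adam17 (0.971). Most like Bgn rc_AA859830_s_at were Enpp1 (0.991), Agrn (0.983) and Rnf130 (0.982), and most like Bgn U17834_at were Rnf130 (0.986), Crmp1 (0.985) and Enpp1 (0.982). These correlations describe 8 arrays in 4 groups that share their normalisation, and the genes were picked for their likeness, so no test is given.

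Other matrix genes were read from 6 lists by role, with 1 probe set per gene and 49 genes tested in all. The lists too were chosen with earlier results of these data known, so their counts are a description. In fast against slow C6 cells 7 of the 49 were called, all lower, beside 6.66% of all probe sets, 265 of those 445 calls being lower. The median log2 change of the 49 was -0.19. In fast against slow C6SPGFP cells 1 was called, which was higher, beside 1.39%. C6SPGFP against C6 gave 4 higher and 1 lower among slow cells, beside 6.34%, and 13 higher and 1 lower among fast cells, beside 15.6%, where the median was 0.29. Over all probe sets, 220 of 424 such calls were higher among slow cells and 554 of 1042 among fast cells. The interaction was called for 4 genes, all positive, beside 3.82%, with 181 of all 255 such calls positive.

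Of 8 other collagen chains tested, Col15a1, a chain of a basement membrane collagen, read 26.9 and 15.2 in C6SPGFP slow and 68.7 and 61.8 in C6SPGFP fast. It rose by 1.36 ± 0.25 in C6SPGFP (adjusted p = 0.0378), the direction of Col3a1 X70369_s_at, and exceeded C6 among fast cells by 1.27 (adjusted p = 0.0101). Col5a2, a fibril-forming chain that co-assembles with type I collagen, was higher in C6SPGFP among fast cells by 0.48 (adjusted p = 0.0411). Col8a1 was lower in C6SPGFP among slow cells by -1.96 (adjusted p = 0.0245). Col1a2, which pairs with Col1a1 in type I collagen, had changes of 0.31 in C6 and 0.24 in C6SPGFP and passed no test. The Col15a1 rise was called under 5 of 16 alternatives and the Col5a2 difference under 6 of 17.

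Of 9 genes for collagen processing and cross-linking, Loxl1, a lysyl oxidase relative needed for elastic fibres, was lower in fast C6 cells: it read 410.4 and 422 in C6 slow and 162 and 248 in C6 fast (-1.02 ± 0.21, adjusted p = 0.0204). Among fast cells Pcolce, an enhancer of procollagen cleavage, and Ppib, a prolyl isomerase of the endoplasmic reticulum, were higher in C6SPGFP by 0.64 and 0.46, calls kept under 11 and 5 of 17 alternatives. P4ha1, a catalytic subunit of collagen prolyl 4-hydroxylase, was lower there by -1.09 ± 0.23 (adjusted p = 0.0139). P4ha1 read 699 and 647 in C6 fast and 399.8 and 241 in C6SPGFP fast. At the deposited scaling, where C6SPGFP fast replicate 1 stays on its higher scale, its difference was 0.0749 in place of -1.09. There the median log2 change of all probe sets in this comparison was 1.11. The P4ha1 call was also lost without either C6 fast array or C6SPGFP fast replicate 2.

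Among 11 other proteoglycans, Ptprz1, a receptor phosphatase that carries chondroitin sulfate, read 69.1 and 100.2 in C6 slow, 1.69 and 1.23 in C6 fast, 299 and 272 in C6SPGFP slow, and 293 and 424 in C6SPGFP fast. Its change was -3.27 ± 0.25 in C6 (adjusted p = 0.000124), and it exceeded C6 by 5.25 among fast cells (adjusted p = 5.23e-06) and by 1.68 among slow cells (adjusted p = 0.00640). Bcan, the brain proteoglycan brevican, was higher in C6SPGFP by 1.84 among slow and 2.13 among fast cells (adjusted p = 0.00844 and 0.00155). Gpc1 was higher by 1.22 among slow and 0.76 among fast cells (adjusted p = 0.00285 and 0.00888). Mgp, Bcan, Gpc1 and Ptprz1 were thus each called higher in C6SPGFP among both slow and fast cells.

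Of 6 elastic fibre and matricellular genes, Eln, the gene of elastin, read 88.8 and 179 in C6 slow, 49.9 and 13.0 in C6 fast, 60.04 and 64.95 in C6SPGFP slow, and 237 and 224 in C6SPGFP fast. The change was -1.95 ± 0.46 in C6 (adjusted p = 0.0407) and the set difference among fast cells 2.77 ± 0.46 (adjusted p = 0.00433). Ccn1, a secreted integrin ligand, was lower in fast C6 cells by -1.49 (adjusted p = 0.0303). Vtn, the gene of vitronectin, was higher in C6SPGFP among slow cells by 1.05 (adjusted p = 0.0400). The call of Eln within C6 was kept under 6 of 17 alternatives, and that among fast cells under all 17. The calls of Ccn1 and Vtn were kept under 9 of 17 and 6 of 16.

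Of 7 genes tied to mineral and to Gla proteins, Ggcx, the carboxylase that makes the Gla residues of Mgp and of clotting factors, read 182 and 190.2 in C6 slow, 89.4 and 81.1 in C6 fast, 237 and 240.3 in C6SPGFP slow, and 256 and 258 in C6SPGFP fast. It was lower in fast C6 cells by -1.06 ± 0.16 (adjusted p = 0.00459) and higher in C6SPGFP among fast cells by 1.51 (adjusted p = 0.000473). Enpp1, which makes the mineralisation inhibitor pyrophosphate, changed by -1.497 ± 0.25 in C6 (adjusted p = 0.00790) and differed by 1.76 between the sets among fast cells (adjusted p = 0.00188). Neither gene was called between the sets among slow cells, where Mgp differed most.

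Of 8 receptors of osteopontin and collagen, Itga1, the alpha chain of a collagen-binding integrin, read 539.8 and 398 in C6 slow, 41.2 and 49.1 in C6 fast, 362 and 472 in C6SPGFP slow, and 404 and 552 in C6SPGFP fast. Like Bgn it was low on the C6 fast arrays alone, with a change of -3.15 ± 0.23 in C6 (adjusted p = 0.000118) and a set difference of 3.18 ± 0.23 among fast cells (adjusted p = 5.68e-05). Cd44, a receptor of hyaluronan and osteopontin, was higher in C6SPGFP among fast cells by 1.06 (adjusted p = 0.000955), and Itgb3, the beta chain of an integrin that binds osteopontin and vitronectin, by 0.80 (adjusted p = 0.0471). The Itgb3 call was kept under 4 of 16 alternatives.

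**Figure D4:**
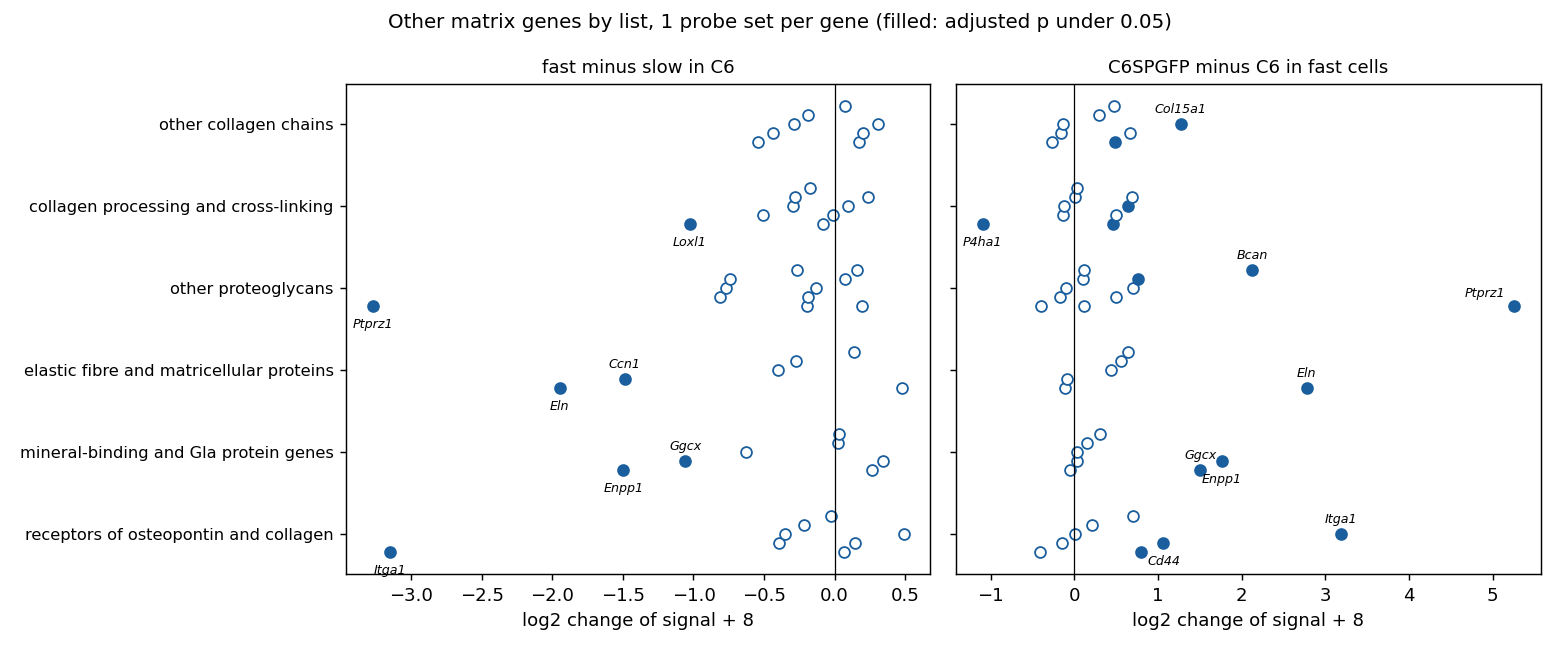
Log2 change of mean log2(signal + 8) for 49 other matrix genes, 1 point per gene and 1 row of points per list, for fast minus slow in C6 and for C6SPGFP minus C6 in fast cells; filled points have an adjusted p under 0.05, and those beyond 1 in size are named. All 7 called genes lie to the left of 0 in C6, and 13 of 14 called genes lie to the right of 0 among fast cells. Over all probe sets tested, 6.66% are called in C6, 265 of 445 of them lower. Among fast cells 15.6% are called, 554 of 1042 of them higher.

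Glial markers were called in all 5 comparisons. Of 8 tested, 5 were lower in fast than in slow C6 cells (6.66% of all probe sets called), and Cnp was lower in fast than in slow C6SPGFP cells (1.39%). Between the sets, 3 were higher in C6SPGFP among slow cells (6.34%) and 6 among fast cells (15.6%), and 5 had a positive interaction (3.82%). Bgn was called in fast against slow C6 cells, between the sets among fast cells and, for 1 probe set, in the interaction. The summed signal of the glial list was 5318 to 5512 in C6 slow, 3050.3 to 3436 in C6 fast, 7964 to 8045 in C6SPGFP slow and 7631 to 7837 in C6SPGFP fast. Vim, the gene of the intermediate filament vimentin, read 2594 or more on every array, while Sox10, a glial transcription factor, read 304 on average in C6 slow and 1.56 in C6 fast. Fabp7 stayed at or below 3.88 on every array, and Ptprz1 belongs to this list too.

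Calls of markers of other cell types are given beside the share called over all probe sets. Of 6 fibroblast and mural markers, none was called within C6 (6.66%) or C6SPGFP (1.39%) by limma, with 0 at an unadjusted p under 0.05. Pdgfra alone was higher in C6SPGFP among slow cells (6.34%) and among fast cells (15.6%). The summed signal of the fibroblast and mural list was 1045 to 1206 in C6 slow, 861 to 874 in C6 fast, 1531 to 1536 in C6SPGFP slow and 1416 to 1492 in C6SPGFP fast. In it Pdgfra averaged 460 in C6 slow and 1150 in C6SPGFP slow, while Tagln averaged 325 and 78.1. Among fast cells Pdgfra averaged 356 in C6 and 925 in C6SPGFP, and Tagln 176 and 145. Such sums add signals that are not comparable between probe sets, so the brightest genes weigh most. No endothelial or skeletal marker was called by limma in any of the 5 comparisons, with 0 of 3 and at most 1 of 2 at an unadjusted p under 0.05. Only these 3 and 2 genes were tested, beside shares of 1.39% to 15.6% over all probe sets. Of 5 microglial and haematopoietic markers, Cd37 was higher in fast than in slow C6 cells by 1.41, beside 6.66% of all probe sets called. Among fast cells Cd37 was lower in C6SPGFP by -1.10 and Cd14 higher by 1.02, beside 15.6%. Levels within each list ranged widely. Of the fibroblast and mural genes, Pdgfra read 326 to 1159, Tagln 67.5 to 511, Acta2 145 to 236 and Anpep 84.5 to 135, while Thy1 and Des stayed at or below 10.7 and 12.8. Of the endothelial genes, Flt1 read 41.1 to 92.7 and Pecam1 16.2 to 31.99, and Kdr at most 9.62; their sum was 74.2 to 129 over all arrays. Of the microglial and haematopoietic genes, Cd14 read 90.5 to 292 and Ptprc 28.4 to 48.3, and Itgam and C1qb at most 4.65 and 4.93. Their sum was 250.1 to 270.4 in C6 slow, 219.7 to 271 in C6 fast, 384 to 385 in C6SPGFP slow and 308 to 351 in C6SPGFP fast. Of the skeletal genes, Alpl read 255 to 417, and Ibsp, Col2a1 and Acan at most 11.8, 11.7 and 2.50, with a sum of 282 to 431 over all arrays. The part of any other cell type in the differences of the 9 genes was not tested.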

How the data were processed

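Linear signal intensities of 8799 probe sets on 8 arrays were used as deposited by the authors. The software, background correction and scaling behind them were not stated in the sources used here. Precision is set by having 2 arrays in each group.

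Genes were named through the platform's probe annotation, with symbols updated from the rat GRCr8 annotation: 7018 probe sets had 1 symbol, 308 several and 1473 none. The 59 control probe sets were left out of the tests. Signals were quantile normalised because the 2% trimmed means of the arrays differed by over 10%. A filter at a mean of 8 kept 6684 probe sets for testing and left out 2056, and tests used log2(signal + 8). limma 3.58.1 in R 4.3.3 fitted 4 group means over all 8 arrays with 4 residual degrees of freedom, moderated with a trend on the mean level. The 5 comparisons were two-sided, with Benjamini-Hochberg adjustment over all 6684 probe sets. The fit was tested on simulated data with known changes. Means and intervals are from these fits, and ± gives the standard error.

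Every probe set of the 9 genes is given. From each list of other genes the text names at most 3 called genes per direction and comparison, those with the largest change, through the probe set with the highest mean signal. Likeness was the Pearson correlation of log2 values over the 8 arrays, for tested probe sets of the 9 genes whose group means span at least 2 (log2), against other genes spanning at least 1. The 9 genes, the lists and the tests were chosen with earlier results of these data known. The alternatives were the scaling, the pseudocount, the filter, the moderation, the arrays fitted, a replicate block and leaving out each array; those for the list genes named were added after the data were seen.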

Additional observations from a re-analysis of the deposited data

Results flagged for a closer look

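The change from slow to fast cells differed between C6SPGFP and C6, by limma's test of the difference itself, for 3 probe sets of the 9 genes. The C6SPGFP change minus the C6 change was 1.24 for Col1a1 M27207mRNA_s_at (adjusted p = 0.0355), 2.07 for Col3a1 X70369_s_at (adjusted p = 0.0266) and 1.93 for Bgn U17834_at (adjusted p = 0.0301), each on the log2 scale. Of these 3 probe sets, those of Col1a1 and Bgn had fast arrays below the slow ones in C6. Those of Col1a1 and Col3a1 had fast arrays above the slow ones in C6SPGFP, where the Col1a1 change was not called (adjusted p = 0.387). The Bgn arrays of C6SPGFP overlapped. How many of all probe sets separate in this way was not counted. Col3a1 X70369_s_at reached the mean signal needed for testing only through C6SPGFP fast. The other probe sets of these genes did not pass (adjusted p = 0.149 to 0.778 for Col1a1, 0.581 for Col3a1 and 0.0900 for Bgn). The calls were kept under 7 of 16 alternatives for Col1a1, 7 of 15 for Col3a1 and 7 of 16 for Bgn.

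The same test gave 4 of the other matrix genes: Eln at 3.71 (adjusted p = 0.0164), Ggcx at 1.16 (adjusted p = 0.0259), Ptprz1 at 3.57 (adjusted p = 0.000771) and Itga1 at 3.34 (adjusted p = 0.000834). The Ggcx call was kept under 8 of 16 alternatives and lost without any 1 array except C6 fast replicate 1, and the Eln call was lost without any 1 of the C6SPGFP arrays. All 7 differences are positive, as were 181 of the 255 called over all probe sets, 3.82% of those tested. The Mgp difference of -2.08 was negative and not called (adjusted p = 0.0655).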

How the results depend on the processing

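Over 17 alternatives, or fewer where one gives no value, no call of the 19 probe sets of the 9 genes changed direction. Of 1556 combinations of a probe set, comparison and alternative, 1463 kept their side of the threshold, 75 lost a call and 18 gained one. Most of the 1556 had no call to lose, and 73 that were not called either way changed sign. The calls themselves were kept less often, from 5 of 17 alternatives for Col1a1 M27207mRNA_s_at in C6 to all 17 for Mgp between the sets. At the deposited scaling, where C6SPGFP fast replicate 1 stays on its higher scale, the calls were 0 of 18 in C6, 0 in C6SPGFP, 4 between the sets in fast cells and 0 for the interaction, with 2, 2 and 3 at an unadjusted p under 0.05 by limma where 0 are called. With a required mean signal of 50, 1 was called in C6SPGFP, where Col3a1 X70369_s_at was no longer tested. Leaving out 1 array at a time gave 1 to 4 calls in C6, 0 to 2 in C6SPGFP, 1 to 2 between the sets in slow cells, 5 to 9 in fast cells and 0 to 3 for the interaction, with at least 3 and 7 at an unadjusted p under 0.05 where 0 were called in C6SPGFP and for the interaction. The lowest counts came without C6 fast replicate 1 in C6, without C6 fast replicate 1 or C6SPGFP fast replicate 1 in fast cells, without C6SPGFP slow replicate 2 or either C6SPGFP fast array in C6SPGFP, and without C6SPGFP fast replicate 1 or either C6SPGFP slow array for the interaction. The 2 in slow cells came without C6 slow replicate 2. P4ha1 between the sets in fast cells was 0.0749 at the deposited scaling, where its sign turned and the median of all probe sets was 1.11.

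Over all probe sets, the deposited scaling gave 20, 15, 2, 182 and 24 calls in the 5 comparisons, with 100%, 94.0% and 95.8% of them higher in C6SPGFP fast against slow, between the sets in fast cells and for the interaction, against 76.3%, 53.2% and 71.0%. It moved the median log2 change of all probe sets to 1.04, 1.11 and 1.08 there. Fitting only the arrays compared gave 230 calls in C6 and 270 between the sets in slow cells. Without 1 array the calls over all probe sets were 286 to 445, 21 to 107, 95 to 422, 517 to 1125 and 122 to 273.

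Replicate numbers were not used to pair arrays: deviations of same-numbered arrays correlated at -0.13 to 0.27, and there are only 2 numbers. With the replicate number as a block, the calls among the 19 were 3, 2, 1, 8 and 4, the added interaction being Mgp (adjusted p = 0.0363), and 424, 87, 392, 989 and 235 over all probe sets.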
